A study of Mus musculus with 15 samples.

Results

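Tim-4-CD4+ macrophages of the mouse small intestine carry CD4 but not Tim-4, and by these surface markers they stand between Tim-4-CD4- macrophages, which have neither, and Tim-4+CD4+ macrophages, which have both. Each gene was compared between the 4 Tim-4-CD4+ libraries and the average of the 4 Tim-4-CD4- libraries and of the 4 libraries of Tim-4+CD4+ cells on the log2 scale, with weights of 1, -0.5 and -0.5. These 12 libraries are the macrophage part of a series of 15, and the other 3 came from Ly6Chi monocytes of peripheral blood. The question was which genes were above both or below both of the other subsets, and so were not simply intermediate. All groups came from wild type adult male C57BL/6 mice, with no treatment named in the labels, and each macrophage library holds FACS-sorted cells that were pooled from the small intestine of 3 mice. By the study's methods, macrophages were gated as live CD45+CD11b+ cells positive for CD64 and MHCII, and cells that stained for Ly6C or for a lineage cocktail (TCRβ, B220, Ly6G and Siglec F) were gated out. The libraries of a subset were sorted on separate occasions, so the errors rest on the spread between sorts of pooled animals and not between single animals. The labels do not say which libraries of different subsets came from the same mice or sort. The reported fit treated all libraries as unpaired. The SE of a difference was approximated from the fit over all 15 libraries. It is the absolute log2 difference divided by the square root of the F statistic of its test.

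Macrophages of the gut wall take up dying cells and bacteria, present antigen and keep inflammation low, and blood monocytes can mature into them. Tim-4, the product of Timd4, is a receptor for the phosphatidylserine that dying cells expose. CD4 is best known as the coreceptor of helper T cells, but some macrophages also carry it. A gene that is above or below both neighbors in a subset with an intermediate surface phenotype cannot be placed by a single scale that runs from one outer subset to the other.

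Total counts on genes ran from 39568129 to 151510641 in the Tim-4-CD4+ libraries and from 39388763 to 116123886 in the other 8 macrophage libraries. Levels are given as normalized read counts (CPM) after TMM scaling, with the libraries in the order of replicates 1 to 4, and differences as log2 differences ± SE from a single edgeR quasi-likelihood fit over all 15 libraries. Where values follow the word against with no group named, the Tim-4-CD4- range comes first, the Tim-4+CD4+ range second and any monocyte range last. A gene was called when its Benjamini-Hochberg adjusted p over the 15802 genes tested was under 0.05. The genes of both sorting markers followed the labels. Cd4 was at 484, 499, 598 and 541 CPM in Tim-4-CD4+ macrophages, 14.5 to 39.2 CPM in Tim-4-CD4- macrophages and 752 to 924 CPM in Tim-4+CD4+ macrophages. Timd4 was at 4.47, 1.29, 0.511 and 0.547 CPM in Tim-4-CD4+ macrophages and 336 to 389.9 CPM in Tim-4+CD4+ macrophages. Replicate 1 held the most Timd4 of these 4 libraries, above the highest Tim-4-CD4- library (0.151 to 2.93 CPM) and far below every Tim-4+CD4+ library. None of the 13 macrophage identity genes was called in the contrast. Among them, Cx3cr1, the fractalkine receptor, was at 828 to 1102 CPM in Tim-4-CD4+ macrophages and Fcgr1, which encodes CD64, at 264 to 283 CPM. In bulk RNA a lower level can come from fewer cells that express a gene or from less RNA in each cell, and these cannot be told apart here.

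Few genes set Tim-4-CD4+ macrophages apart from the average of both other subsets. Of the genes tested, 111 were called (0.702%), 56 of them higher (0.354%) and 55 lower (0.348%). At an unadjusted p under 0.05 there were 1572 genes, 673 higher and 899 lower. The called differences were of moderate size, with a median absolute log2 difference of 0.79 and 39 genes at 2-fold or more. The median over all genes was 0.0012, so the contrast was centered on no difference. Among the called genes, 27 had a fitted level above both other subsets (0.171% of genes tested) and 33 had one below both (0.209%). The others, 29 higher and 22 lower, lay between both subsets but away from the midpoint. A stricter reading asked for a called difference from each subset separately, and 5 genes were above both (0.0316%) and 6 were below both (0.038%) by that rule. These counts leaned on single libraries of the subset. Without Tim-4-CD4+ replicate 4, the deepest library, 17 genes were higher and 12 lower, and without Tim-4-CD4+ replicate 2, 25 were higher and 14 lower. The lower count was also 34 in the fit without Tim-4-CD4- replicate 1, and it was 36 in that without Tim-4+CD4+ replicate 3. Of the called genes outside both subsets, 10 above and 8 below were left without Tim-4-CD4+ replicate 4, and 13 and 10 without Tim-4-CD4+ replicate 2, while those below numbered 19 in the fit without Tim-4-CD4- replicate 1 and 20 in that without Tim-4+CD4+ replicate 3. By both pairwise tests, 2 genes were above without Tim-4-CD4+ replicate 4 and 3 without replicate 1 or 2. By the same rule 3 were below without Tim-4-CD4- replicate 2 or Tim-4-CD4+ replicate 2 or 4, and 2 without Tim-4+CD4+ replicate 2 or 4. DESeq2 called 140 genes higher and 170 lower.

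**Figure D1:**
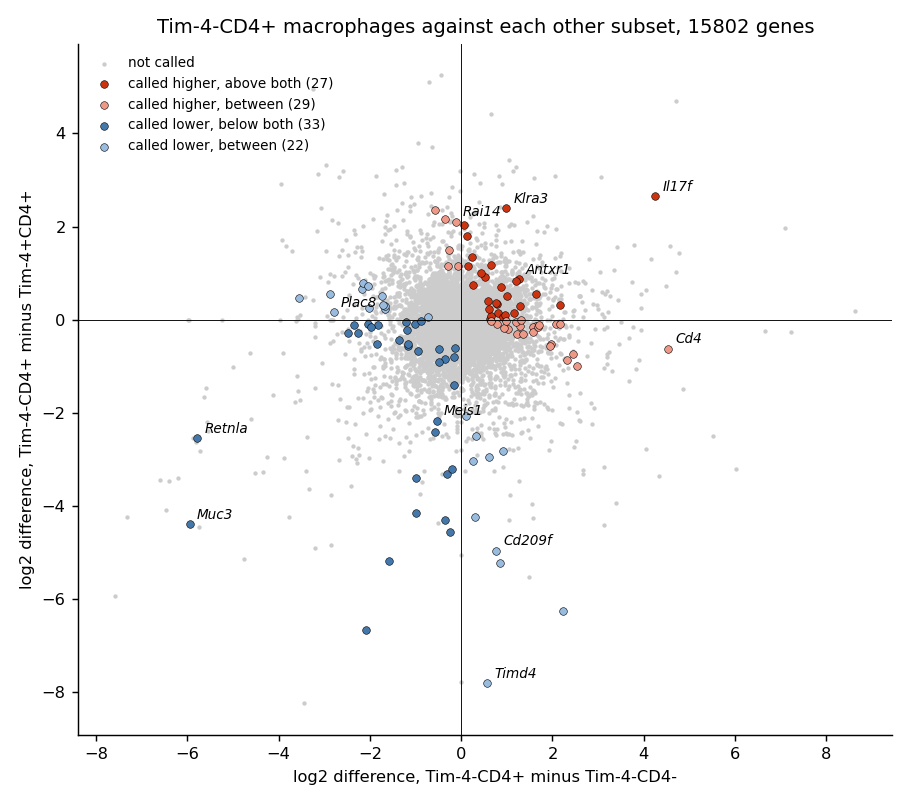
Log2 difference of Tim-4-CD4+ macrophages from the Tim-4-CD4- subset on the horizontal axis and from the Tim-4+CD4+ subset on the vertical axis, with 1 point for each of 15802 genes. Called genes are colored by place, with 27 above both in the upper right, 33 below both in the lower left, and 29 higher and 22 lower ones between the outer subsets.

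The 5 genes above both subsets by both pairwise tests were Mmp9, Antxr1, Tmem26, Ntn4 and Klra3. All 4 Tim-4-CD4+ libraries lay above the other 8 macrophage libraries for each of them, and they were also lower in every monocyte library than in every Tim-4-CD4+ library.

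Mmp9 (chr2:164940780-164955850, GRCm38, plus strand) encodes a secreted gelatinase that cuts collagen of the basement membrane. It was at 2966, 2887, 3180 and 3276 CPM in Tim-4-CD4+ macrophages. The Tim-4-CD4- libraries held 1401, 1809, 1487 and 1436 CPM and the Tim-4+CD4+ libraries 2107, 2367, 2197 and 1958 CPM, while monocytes held 0.892 to 1.53 CPM. The lowest Tim-4-CD4+ library was thus above the highest library of either other subset, and Tim-4+CD4+ macrophages stood between. On the log2 scale Mmp9 differed by 0.76 ± 0.10 from the average of both (adjusted p = 0.00186), 1.01 ± 0.12 from the Tim-4-CD4- subset (adjusted p = 4.46e-05) and 0.51 ± 0.12 from the Tim-4+CD4+ subset (adjusted p = 0.0237). The call against the average held in all 24 alternatives. The call against both subsets was lost when any of Tim-4-CD4+ replicates 1, 3 and 4 or Tim-4+CD4+ replicates 1, 3 and 4 was left out.

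Antxr1 (chr6:87133853-87335821, minus strand) encodes a collagen-binding surface receptor that anthrax toxin also uses. Its level was 30.2, 36.6, 36.97 and 38.6 CPM in Tim-4-CD4+ macrophages. It was 14.4, 15.5, 11.7 and 17.7 CPM in Tim-4-CD4- macrophages and 13.9, 19.6, 22.7 and 21.8 CPM in Tim-4+CD4+ macrophages. The other subsets overlapped each other, and Tim-4-CD4+ macrophages were above both. On the log2 scale Antxr1 differed by 1.07 ± 0.13 from the average (adjusted p = 0.00155), 1.26 ± 0.16 from the Tim-4-CD4- subset (adjusted p = 8.15e-05) and 0.87 ± 0.16 from the Tim-4+CD4+ subset (adjusted p = 0.0038), and the call against both held in all 24 alternatives. Monocytes had 0 to 0.0292 CPM.

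Ntn4 (chr10:93640681-93747207, plus strand) encodes netrin-4, a secreted protein related to laminin that is part of basement membranes. It was at 14.9, 16.5, 13.9 and 17.3 CPM in Tim-4-CD4+ macrophages. The Tim-4-CD4- libraries held 12.3, 9.32, 10.4 and 11.9 CPM and Tim-4+CD4+ macrophages held 8.63, 7.45, 7.94 and 9.07 CPM. Here the lowest levels were in Tim-4+CD4+ macrophages. The log2 difference was 0.72 ± 0.10 from the average (adjusted p = 0.00203), 0.51 ± 0.12 from the Tim-4-CD4- subset (adjusted p = 0.0088) and 0.92 ± 0.12 from the Tim-4+CD4+ subset (adjusted p = 0.000118). This call too held in all 24 alternatives.

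Tmem26 (chr10:68723646-68782650, plus strand) encodes a membrane protein used as a surface marker of beige fat cells. It was at 44.9, 38.4, 31.9 and 40.9 CPM in Tim-4-CD4+ macrophages, 20.9, 21.3, 18.3 and 24.9 CPM in Tim-4-CD4- macrophages and 15.3, 29.005, 26.1 and 26.02 CPM in Tim-4+CD4+ macrophages. Tim-4+CD4+ replicate 1 was low within its subset, and the others reached close to the lowest Tim-4-CD4+ library. The log2 difference was 0.78 ± 0.14 from the average (adjusted p = 0.0124), 0.87 ± 0.17 from the Tim-4-CD4- subset (adjusted p = 0.00233) and 0.70 ± 0.16 from the Tim-4+CD4+ subset (adjusted p = 0.0244). The call against both was lost without Tim-4-CD4+ replicate 1, 2 or 4, and that against the average without replicate 4 (adjusted p = 0.0623).

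Klra3 (chr6:130323289-130337574, minus strand) belongs to the Ly49 family of lectin-like receptors for MHC class I, which natural killer cells use. It was at 1.8, 2.12, 1.7 and 2.1 CPM in Tim-4-CD4+ macrophages. The Tim-4-CD4- libraries held 1.11, 1.17, 0.668 and 0.932 CPM and Tim-4+CD4+ macrophages 0.38, 0.456, 0.338 and 0.282 CPM. The 3 subsets did not overlap, with Tim-4+CD4+ macrophages lowest. Klra3 differed on the log2 scale by 1.69 ± 0.21 from the average (adjusted p = 0.00155), 0.99 ± 0.25 from the Tim-4-CD4- subset (adjusted p = 0.0196) and 2.39 ± 0.27 from the Tim-4+CD4+ subset (adjusted p = 3.09e-05). The call against both was lost without Tim-4-CD4- replicate 3 or 4 or Tim-4-CD4+ replicate 2 or 4. Ly49 genes are similar copies in a cluster, and counting only uniquely mapped reads can drop reads they share, so the level of Klra3 is uncertain.

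**Figure D2:**
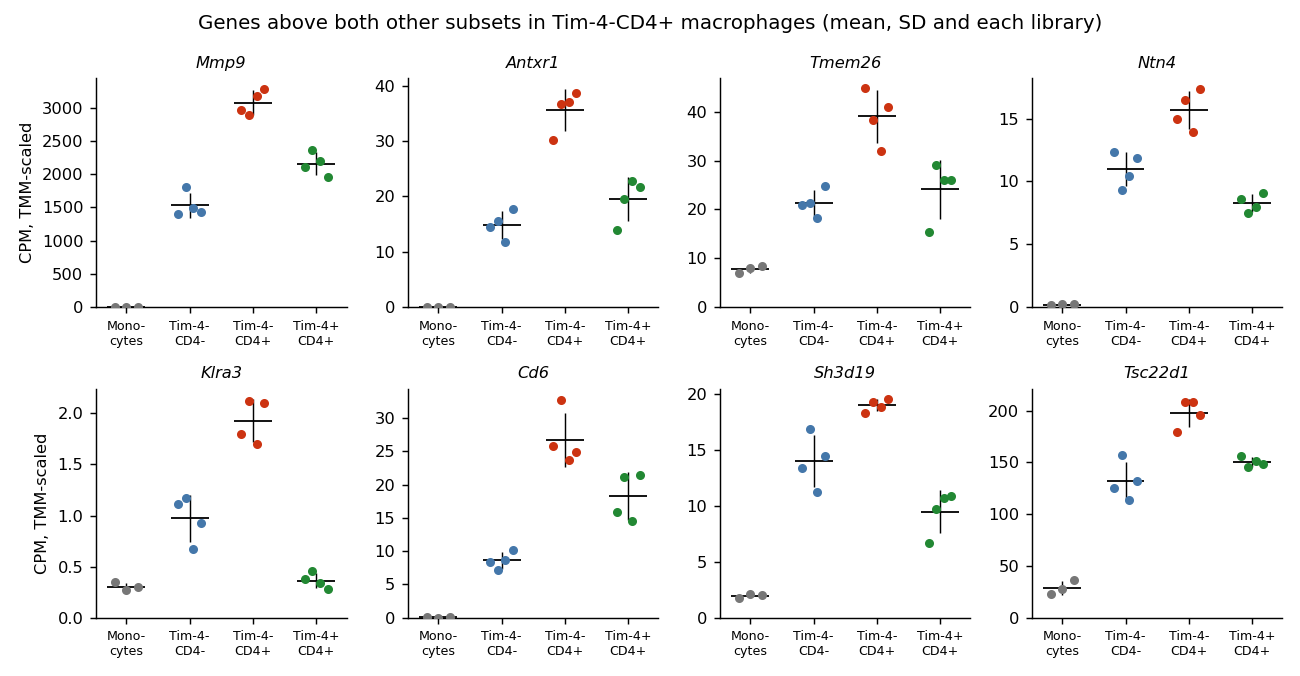
CPM after TMM scaling (linear axes from 0) of 8 genes above both other subsets in Tim-4-CD4+ macrophages, with 1 point per library, a horizontal bar at the mean and a vertical bar of ± SD (3 monocyte libraries, 4 of each subset). For Mmp9, the Tim-4-CD4+ points lie from 2887 to 3276 CPM and those of both other subsets at 1401 to 1809 and 1958 to 2367 CPM.

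The sequences before the start sites of 4 genes called against each subset are shown to set genes that were above both (Ntn4 and Tmem26) beside genes that were below both (Retnla and Ddit4). They are the 250 bases before the RefSeq start on GRCm38.p6, written 5′ to 3′ on the strand of the gene. They lie at chr10:93640799-93641048 on the plus strand, chr10:68723496-68723745 on the plus strand, chr16:48842359-48842608 on the plus strand and chr10:59951771-59952020 on the minus strand. The RefSeq starts differ from the ends of the gene spans given in this report. By those spans the Ntn4 window lies wholly inside its gene, and those of Tmem26, Retnla and Ddit4 reach into theirs. Capitals mark matches, on either strand, to the letters GAGGAA of the PU.1 motif, TTC, any 4 bases and GAA of the STAT6 motif, TTGCNNAA of the C/EBP motif, TATAAA of the TATA box, GGGCGG of the GC box and CCAAT. Matches to TGANTCA of AP-1, TTCNNNGAA of the other STAT factors and CACGTG were searched too, and these 4 windows held none.
Ntn4: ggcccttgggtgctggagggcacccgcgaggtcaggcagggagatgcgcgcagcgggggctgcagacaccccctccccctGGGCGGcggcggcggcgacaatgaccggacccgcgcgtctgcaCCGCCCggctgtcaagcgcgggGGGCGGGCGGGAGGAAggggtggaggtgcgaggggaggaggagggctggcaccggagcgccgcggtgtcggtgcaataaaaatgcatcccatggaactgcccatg
Tmem26: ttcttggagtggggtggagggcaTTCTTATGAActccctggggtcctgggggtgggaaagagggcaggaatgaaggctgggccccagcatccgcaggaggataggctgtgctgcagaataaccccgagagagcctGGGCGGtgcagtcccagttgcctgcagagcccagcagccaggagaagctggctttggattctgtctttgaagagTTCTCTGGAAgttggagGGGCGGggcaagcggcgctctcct
Retnla: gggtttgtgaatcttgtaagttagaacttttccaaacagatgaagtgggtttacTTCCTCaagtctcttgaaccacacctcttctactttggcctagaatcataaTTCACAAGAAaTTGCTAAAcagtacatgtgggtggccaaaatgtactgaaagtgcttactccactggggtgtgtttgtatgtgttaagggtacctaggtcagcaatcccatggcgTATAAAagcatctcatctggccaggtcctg
Ddit4: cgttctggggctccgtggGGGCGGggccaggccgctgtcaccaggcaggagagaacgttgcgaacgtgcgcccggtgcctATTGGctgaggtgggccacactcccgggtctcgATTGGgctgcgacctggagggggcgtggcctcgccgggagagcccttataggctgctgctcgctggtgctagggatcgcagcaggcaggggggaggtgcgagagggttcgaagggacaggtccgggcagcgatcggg
The STAT6 letters stood in the Tmem26 window at -227 to -218 and at -41 to -32, counted back from the start, and in the Retnla window at -145 to -136, and 5.85% of 32851 RefSeq promoter windows of the same length hold them. PU.1, the lineage factor of macrophages, has its letters at -95 to -90 in Ntn4, next to overlapping GC boxes, and at -196 to -191 in Retnla, against 23.3% of all windows. Only the Retnla window among these 4 held a TATA box, at -30 to -25 (12.4% of all windows), and C/EBP letters, at -134 to -127 (9.56%). GC boxes (32.7% of all windows) were in Ntn4, Tmem26 and Ddit4, and CCAAT (33.8%) in Ddit4 alone. The windows of Klra3, above both, and Cdc42ep2, below both, were searched too and are not printed. Klra3 held TATA box letters at -84 to -79, C/EBP letters at -142 to -135, PU.1 letters at -18 to -13 and CCAAT at -55 to -51. Cdc42ep2 held 3 GC boxes and CCAAT at -66 to -62. A match describes the letters and does not show that a factor binds.

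A further 7 genes were called against the average and had all 4 Tim-4-CD4+ libraries above the other 8, with a mean of at least 1 CPM, but differed from only 1 of the subsets by the pairwise tests. In all, 48 genes had no overlap in this direction (0.304% of genes tested), 13 of them called. The share that chance would give was not computed, and these 7 genes were picked partly for having no overlap. Cd6 and Cacnb4, Tsc22d1 and Gm20056 differed from Tim-4-CD4- macrophages, and Gda, Sh3d19 and Amacr from Tim-4+CD4+ macrophages. Tsc22d1, a transcription regulator of the TGF-beta response, was at 179, 208, 208 and 196 CPM, against 113 to 157 CPM in Tim-4-CD4- and 145 to 156 CPM in Tim-4+CD4+ macrophages (log2 difference 0.49 ± 0.10, adjusted p = 0.0413), a call lost in 14 of 24 alternatives (adjusted p up to 0.172) and kept in the fits without Tim-4-CD4- replicate 2, Tim-4+CD4+ replicate 1 or monocyte replicate 1 or 3. Gda, which encodes guanine deaminase, was at 68.6, 63.9, 64.5 and 70.9 CPM, against 51.1 to 62.1 and 17.5 to 31.3 CPM (log2 difference 0.79 ± 0.13, adjusted p = 0.00698), and was at 818 to 1134 CPM in monocytes. Sh3d19, an adaptor protein, was at 18.3, 19.3, 18.9 and 19.6 CPM, against 11.3 to 16.9 and 6.69 to 10.9 CPM (log2 difference 0.72 ± 0.12, adjusted p = 0.00991), a call lost without Tim-4-CD4+ replicate 4 (adjusted p = 0.0539). Amacr, an enzyme of branched-chain fatty acid and bile acid metabolism, was at 14.9, 14.3, 14.8 and 13.7 CPM, against 10.4 to 12.8 and 7.38 to 9.67 CPM (log2 difference 0.50 ± 0.09, adjusted p = 0.0191), and its call was lost when any of the 4 Tim-4-CD4+ replicates was left out (adjusted p up to 0.0888). Cacnb4, a calcium channel subunit, was at 1.82 to 3.09 CPM against 0.97 to 1.24 and 1.06 to 1.77 CPM, and lost its call without any 1 of the Tim-4-CD4- libraries, Tim-4-CD4+ replicate 1, 2 or 4, or Tim-4+CD4+ replicate 3 (adjusted p up to 0.192). The processed pseudogene Gm20056, whose reads may be shared with its parent gene, was at 11.3 to 12.1 CPM, against 6.13 to 7.5 and 6.88 to 10.7 CPM. Its call was lost without any 1 of the Tim-4-CD4+ libraries, Tim-4-CD4- replicate 2 or 3, or Tim-4+CD4+ replicate 3 or 4 (adjusted p up to 0.165).

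Cd6 encodes a surface receptor of T cells and was at 25.7, 32.7, 23.6 and 24.9 CPM in Tim-4-CD4+ macrophages. The Tim-4-CD4- libraries held 8.3, 7.2, 8.69 and 10.2 CPM and Tim-4+CD4+ macrophages 15.9, 21.2, 14.6 and 21.5 CPM. The log2 difference was 1.09 ± 0.15 from the average (adjusted p = 0.00203), 1.64 ± 0.18 from the Tim-4-CD4- subset (adjusted p = 2.29e-05) and 0.55 ± 0.18 from the Tim-4+CD4+ subset (adjusted p = 0.129). Of 22 T cell markers tested, 18 had their highest fitted level in Tim-4-CD4+ macrophages, with a median log2 difference of 0.64, where 3783 of all 15802 genes did and the median was 0.0012. Cd6 was the only one called in the contrast, as higher (0.354% of all genes), while 6 were higher than in Tim-4-CD4- macrophages (4.52% of all genes) and 1, Il7r, was higher than in Tim-4+CD4+ macrophages (1.34%). Their summed level was 26.03 to 30.004 CPM in Tim-4-CD4-, 48.8 to 61.6 CPM in Tim-4-CD4+ and 37.9 to 43.2 CPM in Tim-4+CD4+ libraries. Without Cd6, a split made after its share of the sum was seen, the other 21 markers summed to 15.8 to 22.8, 23.9 to 38.0 and 16.4 to 24.7 CPM, and the libraries of both CD4+ subsets then overlapped. Cd3e, which encodes a chain of the T cell receptor complex, was at 2.95, 1.72, 2.76 and 2.34 CPM in Tim-4-CD4+, 0.466 to 1.04 CPM in Tim-4-CD4- and 1.16 to 1.67 CPM in Tim-4+CD4+ libraries (adjusted p = 0.127 in the contrast). Il17f, a cytokine made by T cells and innate lymphoid cells and singled out here after its values were seen, was at 0.293, 0.405, 0.32 and 0.216 CPM in Tim-4-CD4+ and at most 0.0335 CPM in Tim-4-CD4- and 0.113 CPM in Tim-4+CD4+ libraries (log2 difference 3.45 ± 0.74, adjusted p = 0.0489). By the study's methods, the sort took CD4+ cells, gated out TCRβ+ cells and required CD11b and CD64. The part of T cell RNA in the genes above both subsets was not tested.

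**Figure D3:**
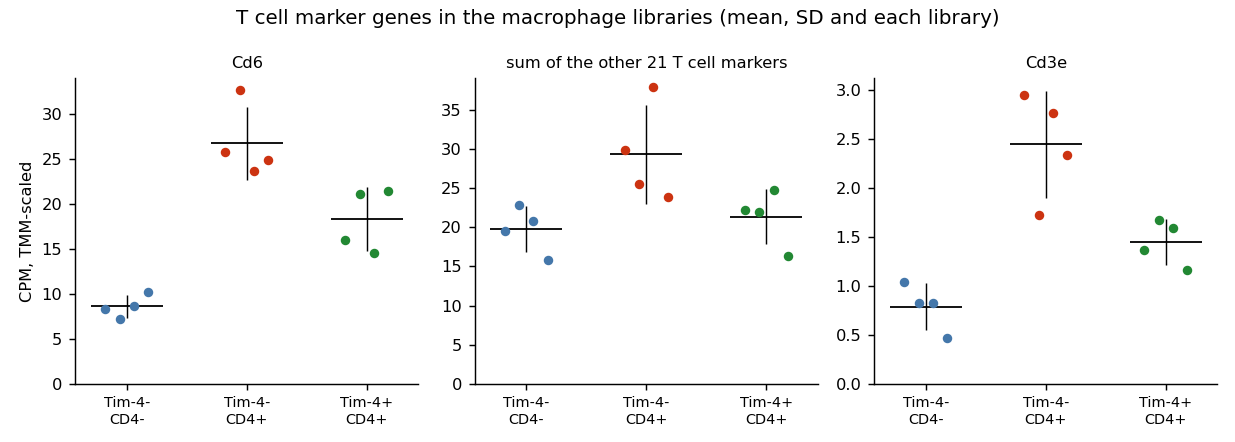
CPM after TMM scaling of Cd6, of the sum of the other 21 T cell markers and of Cd3e in the 12 macrophage libraries (linear axes from 0), with points for libraries, horizontal bars for means and vertical bars for ± SD (4 libraries each). Cd6 separates the 3 subsets, and the sum of the other markers overlaps between both CD4+ subsets.

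The genes below both subsets by both pairwise tests were Retnla, Ddit4, Cdc42ep2, Muc3, Card10 and Sh3bp5, of which Card10 and Sh3bp5 were not called against the average (adjusted p = 0.0934 and 0.0643). Retnla (chr16:48842551-48844461, plus strand) encodes RELM-alpha, a secreted protein that IL-4 and IL-13 induce in macrophages. It was at 0.165, 0.354, 0.332 and 0.149 CPM in Tim-4-CD4+ macrophages. It was at 14.9, 8.29, 17.8 and 11.9 CPM in Tim-4-CD4- macrophages and 1.54, 0.861, 2.43 and 0.796 CPM in Tim-4+CD4+ macrophages, and it had no counts in monocytes. The 3 subsets did not overlap, and the order from high to low was Tim-4-CD4-, then Tim-4+CD4+ and last Tim-4-CD4+. On the log2 scale Retnla differed by -4.16 ± 0.41 from the average (adjusted p = 0.000364), -5.78 ± 0.45 from the Tim-4-CD4- subset (adjusted p = 1.61e-06) and -2.54 ± 0.42 from the Tim-4+CD4+ subset (adjusted p = 0.00223), and it kept both calls in all 24 alternatives.

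Ddit4 (chr10:59949669-59951834, minus strand) encodes REDD1, an inhibitor of mTORC1 that stress and glucocorticoids induce. It was at 1.94, 2.2, 3.26 and 2.34 CPM in Tim-4-CD4+ macrophages, 3.8, 5.08, 4.87 and 5.12 CPM in Tim-4-CD4- macrophages and 3.51, 4.04, 3.55 and 4.51 CPM in Tim-4+CD4+ macrophages, with no overlap. On the log2 scale Ddit4 differed by -0.81 ± 0.14 from the average (adjusted p = 0.0132), -0.95 ± 0.16 from the Tim-4-CD4- subset (adjusted p = 0.00118) and -0.67 ± 0.16 from the Tim-4+CD4+ subset (adjusted p = 0.0277). Its call against the average was lost without Tim-4-CD4+ replicate 1, 2 or 4 and under both replicate blocks (adjusted p up to 0.0839), and the call against both was lost without those or Tim-4+CD4+ replicate 2 or 4, with the 12 macrophage libraries alone and under both replicate blocks, and so was kept in 16 of 24 alternatives. Monocytes, at 20.9 to 26.7 CPM, were above every macrophage library.

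Cdc42ep2 (chr19:5915636-5924816, minus strand) encodes an effector of the GTPase CDC42 that shapes the actin cytoskeleton. It was at 16.3, 15.5, 22.6 and 14.4 CPM in Tim-4-CD4+ macrophages, 23.7, 28.2, 22.9 and 22.1 CPM in Tim-4-CD4- macrophages and 26.9, 26.1, 28.7 and 24.9 CPM in Tim-4+CD4+ macrophages. Tim-4-CD4+ replicate 3 overlapped the Tim-4-CD4- libraries. The log2 difference was -0.56 ± 0.12 from the average (adjusted p = 0.0366), -0.49 ± 0.13 from Tim-4-CD4- and -0.63 ± 0.13 from Tim-4+CD4+ macrophages, and the call against the average was lost in 12 of 24 alternatives, among them the fits without Tim-4-CD4- replicate 1, 2 or 3, Tim-4-CD4+ replicate 1, 2 or 4, Tim-4+CD4+ replicate 2, 3 or 4, or monocyte replicate 3 (adjusted p up to 0.211). Sh3bp5, whose protein binds JNK at mitochondria, was at 18.5, 19.9, 18.7 and 18.8 CPM in Tim-4-CD4+ macrophages, 23.7 to 24.7 CPM in Tim-4-CD4- macrophages and 20.3 to 29.8 CPM in Tim-4+CD4+ macrophages. Card10, a scaffold of NF-kB signaling, was at 2.16, 2.2, 2.15 and 2.03 CPM, against 2.46 to 3.94 and 2.87 to 3.67 CPM. Neither gene overlapped the other subsets, and both pairwise calls held in 12 of 24 alternatives for Sh3bp5 and in 4 of 24 for Card10. Leaving out any Tim-4-CD4- library, any Tim-4-CD4+ library or Tim-4+CD4+ replicate 2, 3 or 4 ended those of Sh3bp5, and leaving out any library but Tim-4-CD4- replicate 4 ended those of Card10. Muc3, a membrane mucin of the intestinal epithelium, had 1 count in all 4 Tim-4-CD4+ libraries together, 55 in the Tim-4-CD4- libraries and 35 in the Tim-4+CD4+ libraries. Per read the ratios were 0.0113 to Tim-4-CD4- macrophages (95% exact interval 0.000281 to 0.0657) and 0.0304 to Tim-4+CD4+ macrophages (0.000750 to 0.181), intervals that cover counting error only, and both pairwise calls held in 13 of 24 alternatives, but in no fit that left out a Tim-4-CD4+ library or Tim-4+CD4+ replicate 1, 2 or 4. Summed markers of epithelium were at 44.5 to 67.7 CPM in Tim-4-CD4-, 38.8 to 49.2 CPM in Tim-4-CD4+ and 27.5 to 41.8 CPM in Tim-4+CD4+ libraries. By member, the median log2 difference of the 16 epithelial markers was 0.64 from the Tim-4-CD4- subset and -0.24 from the Tim-4+CD4+ subset. Against Tim-4-CD4- macrophages 5 were higher (4.52% of all genes) and 2 lower (5.53%). Against Tim-4+CD4+ macrophages 1 was higher (1.34%) and 0 lower (2.07%). The part of epithelial RNA in Muc3 was not tested.

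**Figure D4:**
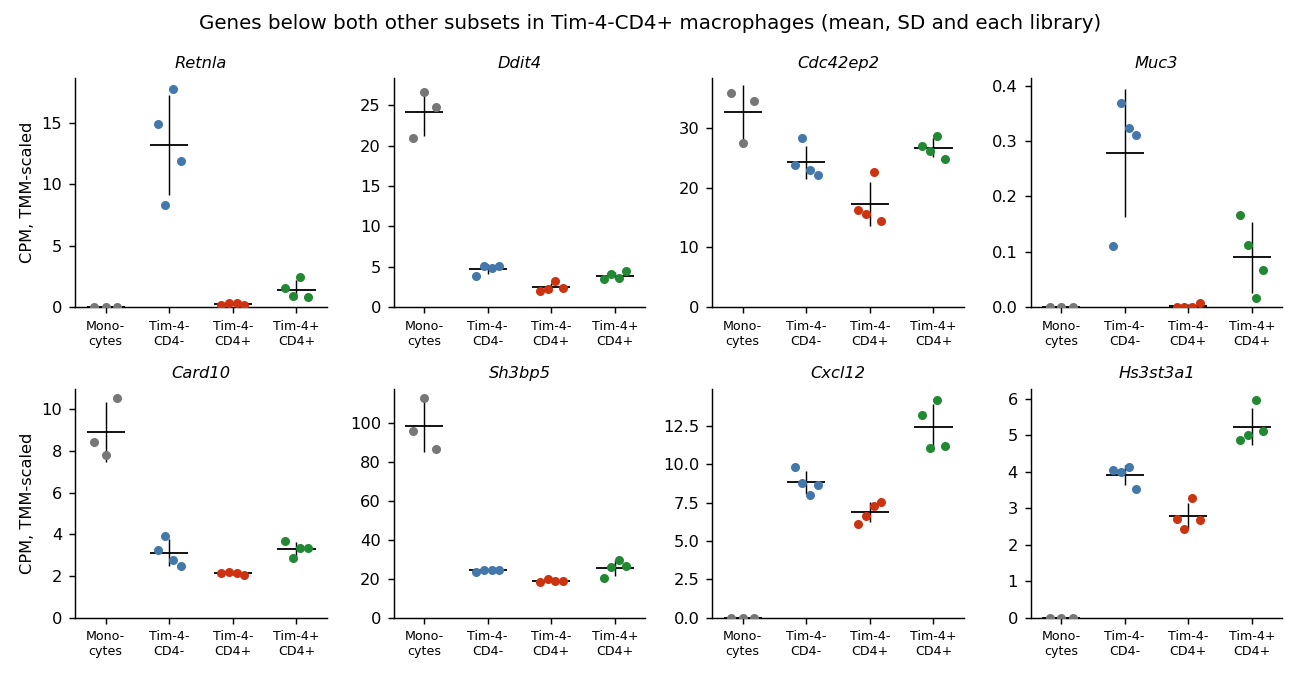
CPM after TMM scaling (linear axes from 0) of 8 genes below both other subsets in Tim-4-CD4+ macrophages, with 1 point per library, a horizontal bar at the mean and a vertical bar of ± SD (3 monocyte libraries, 4 of each subset). Retnla runs from 0.149 to 0.354 CPM in Tim-4-CD4+ libraries against 8.29 to 17.8 CPM in Tim-4-CD4- libraries, and the monocyte points of Ddit4, Card10 and Sh3bp5 lie above every macrophage point.

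In all, 46 genes had every Tim-4-CD4+ library below the other 8 macrophage libraries (0.291% of genes tested), and 5 of them were called. Beside Retnla, Ddit4 and Muc3, these were Hs3st3a1 and Cxcl12. The share that chance would give was not computed, and Hs3st3a1 and Cxcl12 were picked partly for having no overlap. Cxcl12, a chemokine that retains CXCR4+ cells in tissue, was at 6.12, 6.65, 7.28 and 7.53 CPM, against 9.82, 8.76, 8.02 and 8.67 CPM in Tim-4-CD4- and 13.2, 11.1, 14.2 and 11.2 CPM in Tim-4+CD4+ macrophages (log2 difference -0.60 ± 0.12, adjusted p = 0.025). Hs3st3a1, which sulfates heparan sulfate, was at 2.71, 2.43, 3.27 and 2.69 CPM, against 3.52 to 4.12 and 4.86 to 5.96 CPM (log2 difference -0.70 ± 0.14, adjusted p = 0.0354). Both calls were against Tim-4+CD4+ macrophages in the pairwise tests (adjusted p = 0.000938 and 0.00325) and not against Tim-4-CD4- macrophages (adjusted p = 0.114 and 0.0638). The call of Cxcl12 was lost in 6 and that of Hs3st3a1 in 11 of 24 alternatives, with adjusted p up to 0.126 and 0.165. For both, the fits without Tim-4-CD4- replicate 1, Tim-4-CD4+ replicate 1, 2 or 4, or Tim-4+CD4+ replicate 3 were among these, and for Hs3st3a1 also those without Tim-4-CD4- replicate 2 or 3 or Tim-4+CD4+ replicate 2 or 4. Stromal cells also make Cxcl12, and the 11 mesenchyme markers summed to 85.2 to 123 CPM in Tim-4-CD4-, 95.5 to 119 CPM in Tim-4-CD4+ and 131 to 193 CPM in Tim-4+CD4+ libraries, and the 8 endothelial markers to 25.3 to 58.9, 29.7 to 50.1 and 52.0 to 79.2 CPM. None of the mesenchyme and endothelial markers was called in the contrast. Against Tim-4+CD4+ macrophages, the subset from which Cxcl12 differed, the collagen gene Col3a1 (log2 difference -0.73 ± 0.15, adjusted p = 0.0108) and the endothelial gene Esam (-1.45 ± 0.20, adjusted p = 0.000334) were lower. Cells were gated as CD45+CD11b+, and the part of stromal RNA was not tested.

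The 111 called genes fell into a few shapes when read against each neighbor. Among the 56 higher genes, 34 differed from Tim-4-CD4- macrophages only, 13 from Tim-4+CD4+ macrophages only, 5 from both as the highest subset, and 4 from both while between them. Among the 55 lower genes the numbers were 23, 23, 4 and 5. For comparison, 715 genes were higher (4.52%) and 874 lower (5.53%) in Tim-4-CD4+ than in Tim-4-CD4- macrophages, and 212 were higher (1.34%) and 327 lower (2.07%) than in Tim-4+CD4+ macrophages. Without Tim-4-CD4+ replicate 4, 549 genes were lower than in Tim-4-CD4- macrophages. The pairwise and averaged comparisons share libraries, so these counts are not independent.

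The most frequent of these shapes was a gene that was low in Tim-4-CD4- macrophages and did not differ by the test between the CD4+ subsets. Il12rb2, a chain of the IL-12 receptor, was at 31.97, 30.5, 25.7 and 28.7 CPM in Tim-4-CD4+, 6.46, 5.71, 6.83 and 7.01 CPM in Tim-4-CD4- and 15.2, 27.8, 25.6 and 25.1 CPM in Tim-4+CD4+ macrophages. Its log2 difference was 1.24 ± 0.13 from the average (adjusted p = 0.000262) but only 0.32 ± 0.15 from Tim-4+CD4+ macrophages (adjusted p = 0.336). Pdcd1lg2, which encodes the PD-1 ligand PD-L2, was at 57.3, 59.6, 56.3 and 68.4 CPM, against 22.9 to 25.6 and 43.2 to 56.3 CPM (log2 difference 0.80 ± 0.11, adjusted p = 0.00182). Hoxb5, a homeobox factor, was at 9.76, 9.13, 9.97 and 10.2 CPM, against 2.09 to 2.5 and 8.93 to 11.7 CPM (log2 difference 1.00 ± 0.17, adjusted p = 0.0114), and Nckap5 at 4.35 to 8.06 CPM, against 0.754 to 1.88 and 4.97 to 7.25 CPM. The call of Hoxb5 was lost without Tim-4-CD4+ replicate 4 (adjusted p = 0.066), and that of Nckap5 without any 1 of the Tim-4+CD4+ libraries, Tim-4-CD4- replicate 1, 2 or 4, Tim-4-CD4+ replicate 1, 2 or 4, or monocyte replicate 3 (adjusted p up to 0.27). Cd4, whose protein was sorted on, had the smallest adjusted p of all genes in the contrast (0.000137), with a log2 difference of 1.96 ± 0.18. The log2 difference from Tim-4-CD4- macrophages was 4.54 ± 0.25, and that from Tim-4+CD4+ macrophages was -0.62 ± 0.22 (adjusted p = 0.166). Wnt4, a secreted Wnt ligand, lay between the subsets and differed from both, at 178, 208, 150.5 and 151 CPM against 30.2 to 40.998 and 239 to 375 CPM, and its call was lost without Tim-4-CD4+ replicate 1, 2 or 4 (adjusted p up to 0.126). Il12rb2 was picked after its values were seen.

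Of the 23 lower genes that differed from Tim-4-CD4- macrophages only, 21 (91.3%) were higher in monocytes than in all 3 subsets, against 40.8% of all genes tested. Of the 34 higher genes that differed from Tim-4-CD4- macrophages only, 33 (97.1%) were lower in monocytes than in all 3 subsets, against 47.6% of all genes. Both sets were picked by a difference from Tim-4-CD4- macrophages. The shares among all genes with such a pairwise difference were not computed, so these shares may not be particular to the called genes. Plac8, which marks Ly6Chi monocytes, was at 11.7, 7.36, 7.95 and 7.07 CPM, against 40.2 to 83.1 CPM in Tim-4-CD4-, 6.53 to 9.91 CPM in Tim-4+CD4+ macrophages and 1305 to 2171 CPM in monocytes (log2 difference -1.32 ± 0.21, adjusted p = 0.00766), a call lost without Tim-4-CD4+ replicate 4 (adjusted p = 0.0539). Gpr35, a receptor for tryptophan metabolites, was at 8.06, 6.2, 8.78 and 6.88 CPM, against 25.5 to 35.6, 5.92 to 9.84 and 264 to 316 CPM (log2 difference -1.06 ± 0.14, adjusted p = 0.00194). Crip1, a small LIM protein, was at 12.3, 16.5, 19.1 and 13.1 CPM, against 46.4 to 60.2, 13.1 to 20.2 and 403 to 439 CPM (log2 difference -0.97 ± 0.14, adjusted p = 0.0023). Neither Gpr35 nor Crip1 was called against Tim-4+CD4+ macrophages, with which their libraries overlapped, although their fitted levels were just below it. The 8 blood monocyte markers summed to 606 to 880 CPM in Tim-4-CD4-, 110 to 221 CPM in Tim-4-CD4+ and 50.2 to 83.7 CPM in Tim-4+CD4+ libraries, and Plac8 was the only one called in the contrast. Il1a, which encodes IL-1 alpha, had the same shape among the subsets but not the high level in monocytes, with 25.1 to 31.95 CPM in Tim-4-CD4+, 48.7 to 71.8 CPM in Tim-4-CD4- and 24.9 to 37.2 CPM in Tim-4+CD4+ macrophages but at most 0.0389 CPM in monocytes (log2 difference -0.64 ± 0.14, adjusted p = 0.0413), a call lost without Tim-4-CD4- replicate 1, 2 or 4, Tim-4-CD4+ replicate 1, 2 or 4, or Tim-4+CD4+ replicate 3 (adjusted p up to 0.183).

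In the opposite shape Tim-4-CD4+ macrophages were near Tim-4-CD4- macrophages and differed from Tim-4+CD4+ macrophages. Rai14, an actin-binding protein, was at 13.4, 14.01, 14.4 and 15.03 CPM in Tim-4-CD4+, 16.5, 14.6, 15.5 and 15.2 CPM in Tim-4-CD4- and 1.98, 4.21, 3.73 and 3.32 CPM in Tim-4+CD4+ macrophages (log2 difference 0.99 ± 0.16, adjusted p = 0.00615). Ldlrad3 was at 7.56 to 11.05 CPM, against 11.4 to 13.1 and 1.63 to 3.06 CPM, and at 180.2 to 266 CPM in monocytes (log2 difference 0.91 ± 0.15, adjusted p = 0.00766), with the call lost without Tim-4-CD4+ replicate 4 (adjusted p = 0.0539). Other genes were high in Tim-4+CD4+ macrophages and low in both other subsets. Timd4 was one (log2 difference -3.62 ± 0.61, adjusted p = 0.00975), and its call was lost without Tim-4-CD4+ replicate 2 or 4 (adjusted p up to 0.0521). Meis1, a homeobox factor of stem cells, was at 1.69, 1.95, 1.23 and 1.49 CPM in Tim-4-CD4+, 1.92, 2.56, 2.48 and 2.2 CPM in Tim-4-CD4- and 5.98, 7.23, 6.8 and 8.34 CPM in Tim-4+CD4+ macrophages, with a log2 difference of -1.35 ± 0.16 from the average (adjusted p = 0.000713), -0.54 ± 0.17 from Tim-4-CD4- (adjusted p = 0.0599) and -2.17 ± 0.17 from Tim-4+CD4+ macrophages (adjusted p = 1.94e-06). Camk2n1, an inhibitor of CaMKII, was at 3.21, 1.87, 4.02 and 1.91 CPM, against 2.56 to 4.44 and 18.8 to 36.7 CPM, and Nck2, an adaptor of tyrosine kinases, at 0.879, 0.86, 1.65 and 1.15 CPM, against 1.45 to 1.93 and 4.37 to 7.78 CPM. The lectin receptor genes Cd209f and Cd209g, neighbors on chr8 with similar sequences, were at 0.128 to 0.879 and 0.081 to 0.152 CPM in Tim-4-CD4+ macrophages and at 8.18 to 14.3 and 2.75 to 5.13 CPM in Tim-4+CD4+ macrophages, and reads may be shared between them. Both calls were lost when any of Tim-4-CD4- replicates 2, 3 and 4, Tim-4-CD4+ replicates 2, 3 and 4 or Tim-4+CD4+ replicates 1, 3 and 4 was left out, that of Cd209f also without monocyte replicate 2, and that of Cd209g also without Tim-4-CD4+ replicate 1 or Tim-4+CD4+ replicate 2 (adjusted p up to 0.155 and 0.217). The noncoding RNA 2900052N01Rik was at 0.153 to 0.405 CPM in Tim-4-CD4+, 0.0259 to 0.108 CPM in Tim-4-CD4- and 15.1 to 27.01 CPM in Tim-4+CD4+ macrophages, and its call was lost without Tim-4-CD4- replicate 1 or 3 (adjusted p up to 0.113). Gm6583, at 0.0473 to 0.152 CPM in Tim-4-CD4+ and 1.21 to 1.51 CPM in Tim-4+CD4+ macrophages, was called as well (adjusted p = 0.00404). The neuronal gene Elavl4 followed the same shape, at 0.0767 to 0.257 CPM in Tim-4-CD4+ and 2.87 to 5.57 CPM in Tim-4+CD4+ macrophages. Its call was lost when Tim-4-CD4- replicate 1, 3 or 4, any Tim-4-CD4+ replicate or Tim-4+CD4+ replicate 2 or 3 was left out (adjusted p up to 0.125). The 9 markers of enteric neurons and glia summed to 2.33 to 5.37 CPM in Tim-4-CD4-, 1.64 to 3.73 CPM in Tim-4-CD4+ and 6.50 to 8.79 CPM in Tim-4+CD4+ libraries. Elavl4 was the only one called. Cells were gated as CD45+CD11b+, and the part of RNA from neurons and glia in the genes high in Tim-4+CD4+ macrophages was not tested.

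On the genes that separate the outer subsets, Tim-4-CD4+ macrophages were intermediate. There were 1336 genes that differed at least 2-fold between both outer subsets with an adjusted p under 0.05, a comparison with weights orthogonal to the contrast. Each gene was given a position on the log2 scale, with 0 at the level of Tim-4-CD4- and 1 at the level of Tim-4+CD4+ macrophages. The median position of Tim-4-CD4+ macrophages was 0.554 (quartiles 0.371 and 0.729), and 1230 genes lay from 0 to 1, 46 below 0 and 60 above 1. By library the medians were 0.497, 0.576, 0.531 and 0.585 in replicates 1 to 4. The 739 genes higher in Tim-4+CD4+ macrophages had a median of 0.533 and the 597 lower ones 0.572. Of the 1336 genes, 76 were called away from the midpoint (5.69%), 44 toward Tim-4+CD4+ and 32 toward Tim-4-CD4- macrophages. Without Tim-4-CD4+ replicate 4 these numbers were 14 and 11, without replicate 2 they were 17 and 17, and without Tim-4+CD4+ replicate 3 the second was 20. The other called genes did not meet these criteria, and Mmp9, Antxr1, Tmem26, Ntn4, Ddit4, Cdc42ep2 and Muc3 were among them.

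**Figure D5:**
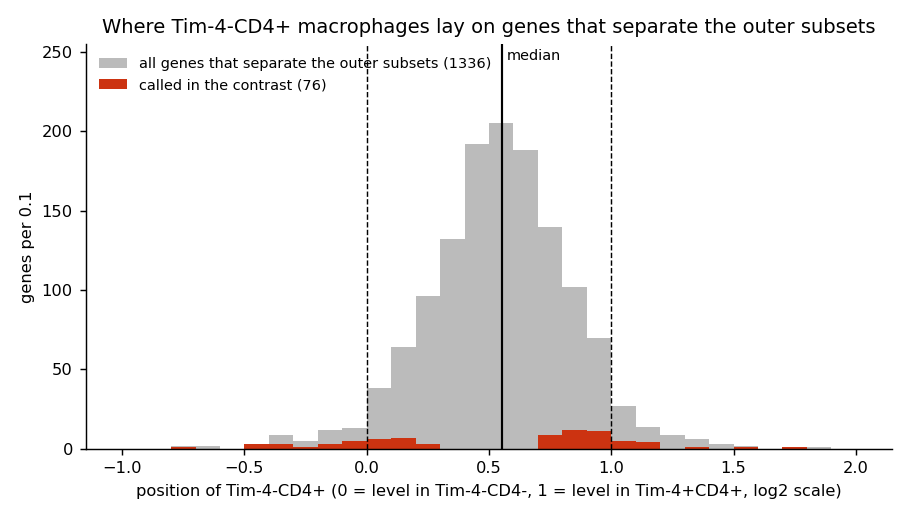
Number of genes (vertical axis) by position of Tim-4-CD4+ macrophages from 0, the level of Tim-4-CD4- macrophages, to 1, that of Tim-4+CD4+ macrophages, on the log2 scale (horizontal axis, steps of 0.1), over the 1336 genes that separate the outer subsets. The solid line is the median of 0.554, and the 76 called genes, in red, lie toward both ends.

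Of 745 genes tested in 35 lists of pathways and cell types, 16 were called in the contrast, 6 higher and 10 lower (2.15%, against 0.702% of all genes tested). The lists were chosen with earlier results of these data known. Called members include Timd4, whose protein was sorted on, and Retnla, Cd209f and Fcna, which the study had named. No enrichment can thus be read from these shares. Calls stood in 12 lists, and no list had more than 3. Among genes of cholesterol synthesis and uptake, Sc5d and Msmo1, enzymes late in the sterol pathway, were higher, and 15 of 24 members tested had their highest fitted level in Tim-4-CD4+ macrophages, with a median log2 difference of 0.27, where 3783 of all 15802 genes did. Msmo1 was at 91.5, 125, 91.6 and 109 CPM in Tim-4-CD4+, 53.9, 47.4, 52.8 and 58.6 CPM in Tim-4-CD4- and 108, 80.7, 89.1 and 108 CPM in Tim-4+CD4+ macrophages (log2 difference 0.54 ± 0.11, adjusted p = 0.0258). Sc5d was at 51.6, 60.2, 49.8 and 54.5 CPM, against 32.4 to 38.9 and 43.3 to 53.1 CPM (log2 difference 0.41 ± 0.08, adjusted p = 0.0243). Both lay above every Tim-4-CD4- library and overlapped Tim-4+CD4+ libraries, and 12 of the 24 members were higher than in Tim-4-CD4- (4.52% of all genes) and none than in Tim-4+CD4+ macrophages (1.34%) by the pairwise tests. Both calls were lost without Tim-4-CD4- replicate 1 or Tim-4-CD4+ replicate 2 or 4, and that of Msmo1 also without Tim-4-CD4- replicate 2 or 3 or Tim-4+CD4+ replicate 3 (adjusted p up to 0.144 for Sc5d and 0.16 for Msmo1).

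Ribosomal protein genes were lower than in Tim-4-CD4- macrophages for the most part. Of 86 tested, 73 were lower in Tim-4-CD4+ than in Tim-4-CD4- macrophages (5.53% of all genes) and 1 was lower than in Tim-4+CD4+ macrophages (2.07%), and the median log2 difference was -0.27 in the contrast, -0.58 from Tim-4-CD4- and 0.037 from Tim-4+CD4+ macrophages, the last of which was -0.0045 with upper-quartile scaling. The summed CPM was 15228 to 18004 in Tim-4-CD4+, 23713 to 25024 in Tim-4-CD4- and 13697 to 19639 in Tim-4+CD4+ libraries. The only member called in the contrast was Rps4l, a processed pseudogene close in sequence to Rps4x, at 4.35 to 6.5 CPM in Tim-4-CD4+ and 12.6 to 16.4 CPM in Tim-4+CD4+ macrophages, and its reads may be shared with that copy. Its call was lost without Tim-4-CD4+ replicate 4 (adjusted p up to 0.11). None of 72 subunits of the respiratory chain was called, although 54 had their lowest fitted level in Tim-4-CD4+ macrophages, with a median log2 difference of -0.14. Over all genes tested, 3783 had their highest and 3796 their lowest fitted level in this subset. The respiratory chain gene with the smallest p was Ndufa6, at 27.97 to 35.05 CPM against 41.2 to 44.5 and 30.7 to 38.4 CPM (adjusted p = 0.186).

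In alternative activation, Pdcd1lg2 was higher and Retnla lower of 16 tested. Mmp9 was the only 1 of 25 matrix proteases and inhibitors called, and the summed CPM of that list was 7896 to 8864 in Tim-4-CD4+, 4954 to 5396 in Tim-4-CD4- and 7876 to 8360 in Tim-4+CD4+ libraries. Of 30 efferocytosis and scavenger receptors, Timd4, Cd209f and Cd209g were lower than the average. Each lay between the other subsets and differed from Tim-4+CD4+ macrophages only, and Tim-4 was sorted on. Of the 30, 9 were higher (4.52% of all genes) and 3 lower (5.53%) than in Tim-4-CD4- macrophages. Against Tim-4+CD4+ macrophages 1 was higher (1.34%) and 7 lower (2.07%). The list summed to 7212 to 7973 CPM in Tim-4-CD4+, 6078 to 6554 CPM in Tim-4-CD4- and 8371 to 9445 CPM in Tim-4+CD4+ libraries. Of 19 complement genes, Fcna, a ficolin that recognizes bacterial sugars, was lower, at 1.49 to 4.08 CPM against 1.73 to 3.38 CPM in Tim-4-CD4- and 16.4 to 29.7 CPM in Tim-4+CD4+ macrophages, and its call was lost without Tim-4-CD4- replicate 2 or 3, Tim-4-CD4+ replicate 1, 2 or 4, or Tim-4+CD4+ replicate 1 or 3 (adjusted p up to 0.16). Of 20 genes of lipid handling, Apoc1 was lower, at 0.0256 to 0.152 CPM against 0.108 to 0.268 and 0.448 to 1.65 CPM, and of the fits that left out 1 library, those without Tim-4-CD4- replicate 3, Tim-4+CD4+ replicate 4 or monocyte replicate 2 kept this call and the other 12 did not (adjusted p up to 0.192). Wnt4 was the only 1 of 22 growth factors called, and Il1a the only 1 of 16 cytokines. No gene was called among 33 of the cell cycle, 21 chemokines, 20 chemokine receptors, 14 of MHC class II presentation, 26 interferon-stimulated genes, 23 Toll-like receptors and adaptors, 27 of the IL-10 and TGF-beta pathway, 28 macrophage transcription factors, 24 integrins, 30 of the lysosome, 22 of the NF-kB pathway, 25 immediate early genes, 19 of glycolysis and 15 of protein and amino acid stress. The marker lists of B and plasma cells (12 tested), epithelium (16), dendritic cells (9), granulocytes and mast cells (8) and erythroid cells (5) held no call either. These counts are for the contrast, which can pass over a gene that changes steadily across the 3 subsets. Lower than in Tim-4-CD4- macrophages (5.53% of all genes) were 7 immediate early, 6 NF-kB and 5 chemokine genes, but 0 interferon-stimulated and 0 lysosome genes. Higher (4.52%) were 0, 1, 2, 0 and 3 in the same order of lists. In the cell cycle list, 4 genes were higher than in Tim-4+CD4+ macrophages (1.34% of all genes) and 0 lower, while 2 were lower than in Tim-4-CD4- macrophages and 0 higher. Of its 33 genes, 32 had a fitted level between the other subsets. Their sum was 628 to 765 CPM in Tim-4-CD4+, 755 to 916 CPM in Tim-4-CD4- and 492 to 616 CPM in Tim-4+CD4+ libraries. Summed B and plasma cell markers, which include immunoglobulin genes, overlapped among the subsets at 3177 to 6218, 4104 to 5847 and 3157 to 7544 CPM in the libraries with CD4 alone, with neither marker and with both. Just outside the threshold stood Ltbp3 (adjusted p = 0.0503), which binds latent TGF-beta and was at 18.3 to 29.5 CPM in Tim-4-CD4+, 20.9 to 29.1 CPM in Tim-4-CD4- and 9.07 to 10.5 CPM in Tim-4+CD4+ macrophages, and further out the transcription factor Tfec (adjusted p = 0.0924), at 25.98 to 34.4, 13.04 to 19.4 and 25.5 to 32.4 CPM. Ifi44, an interferon-stimulated gene, was at 43.2, 28.2, 32.1 and 26.04 CPM, against 17.7 to 30.3 and 9.31 to 21.9 CPM (adjusted p = 0.301).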

How the data were processed

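RNA was sequenced from 12 macrophage and 3 monocyte libraries, each from pooled mice. The authors aligned reads with STAR to GRCm38.p4, after Trimmomatic 0.36 per the labels, and counted them per GENCODE vM11 gene with HTSeq 0.6.1p1. Whether counting used strand is not given in the sources used here. The deposited values are raw counts, beside the same counts divided by the authors' size factors (signal), which were not tested. The table holds genes with at least 16 counts in all, and 19421 of 19456 IDs matched a symbol in GENCODE vM21.

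Counts were fitted with the edgeR 4.0.16 quasi-likelihood test in R 4.3.3 on all 15 libraries, with TMM scaling and its default filter, which left 15802 genes. P values were adjusted by Benjamini-Hochberg. A threshold of 0.05 was used. DESeq2 1.42.0, other scalings and filters, replicate blocks and each library left out were alternatives, 24 in all, and a few genes of low count were not tested in every one (Klra3, Timd4 and Gm6583 in 23, Muc3 in 22). Fitted places are those of the coefficients. The script was tested on simulated data.

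The comparison and lists were chosen with earlier results of these data known. Named were the genes of the sorting markers, called genes outside both subsets with no overlap and at least 1 CPM, at most 15 per direction and otherwise filled to 10 by p, genes different from both subsets, 5 per direction between them, and from each list the called members or that with the smallest p. Genes from outside that rule are said to be so, or are markers. Where reads were few, intervals and limits cover counting error only.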

Additional observations from a re-analysis of the deposited data

Results flagged for a closer look

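Among 225 sets of 4 libraries, 1 for each of 75 named genes in each macrophage subset, 10 had a library set apart from the other 3 by Dixon's test, and chance alone gives about 1 in 20. In Tim-4-CD4+ macrophages, Cx3cr1, the fractalkine receptor, was at 828 CPM in replicate 3, below the other libraries. Flt3, a growth factor receptor of dendritic cells, was at 1.61 CPM in replicate 1, above the others. Elavl4 was lowest in replicate 3 at 0.0767 CPM. Gm6583 was highest in replicate 2 at 0.152 CPM, as was Cxcr2, a chemokine receptor of neutrophils, at 0.0506 CPM with no count in the others. The single Muc3 count gave replicate 4 0.00675 CPM.

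In Tim-4-CD4- macrophages, Il1a was lowest in replicate 3 at 48.7 CPM, and Rfxap, a regulator of MHC class II genes, was highest in replicate 2 at 17.5 CPM. In Tim-4+CD4+ macrophages, Ly6c2 was highest in replicate 1 at 1.05 CPM, and Sc5d was highest in replicate 4 at 53.1 CPM.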

How the results depend on the processing

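No gene called in both an alternative and the reported fit changed direction, and Retnla, Antxr1 and Ntn4 kept both pairwise calls in all 24 alternatives. Of 1778 values of named genes under the alternatives, 1568 kept their side of the threshold, 189 lost the call, 21 gained it and 0 reversed. DESeq2 gave 140 genes higher and 170 lower than the average, 74 called above and 115 below both subsets, 11 above and 19 below by both pairwise tests, 1074 higher than Tim-4-CD4-, 356 higher and 548 lower than Tim-4+CD4+ macrophages, and 101 and 59 separated genes called on the Tim-4+CD4+ side and on the Tim-4-CD4- side, and 108 of its 310 calls were among the 111. With a minimum of 2-fold, in the same order, there were 10 and 29, 7 and 18, 0 and 2, 234 higher and 249 lower than Tim-4-CD4-, 93 and 184 against Tim-4+CD4+, and 15 and 20, by construction fewer. With the 12 macrophage libraries alone, 41 genes were called above both and 9 passed both tests.

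With the replicate block by title numbers, 35 genes were higher and 25 lower, 13 were called below both, 3 were below by both tests, and 29 and 17 separated genes were called. With the block by the numbers in the descriptions, 10 were above by both tests. The numbers did not pair the libraries, since deviations of same-numbered libraries correlated above 0.1 in only 2 of 12 pairs for titles (r from -0.123 to 0.134, 3 correlating best with their own number) and 4 of 12 for descriptions (-0.0888 to 0.161, 5 best). Best partners, many with other numbers, were the same whichever 2 subsets were compared. Tim-4-CD4- replicates 1, 2, 3 and 4 matched best with Tim-4-CD4+ replicates 4, 3, 1 and 2 (r from 0.136 to 0.240). With Tim-4+CD4+ macrophages their best matches were replicates 1, 3, 2 and 4 (r from 0.0582 to 0.184). This grouping is not in the labels, and no fit used it as a block.

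Leaving out 1 library in turn gave 17 to 69 genes higher and 12 to 61 lower than the average, 10 to 35 called above and 8 to 43 below both, 2 to 7 above and 2 to 9 below by both tests, 484 to 1036 higher and 549 to 1167 lower than Tim-4-CD4-, 155 to 221 higher and 243 to 354 lower than Tim-4+CD4+ macrophages, 14 to 49 and 11 to 34 separated genes called, and a median position of 0.526 to 0.573. The largest counts of genes higher (69), called above both (35), and higher and lower than Tim-4-CD4- (1036 and 1167) came without Tim-4+CD4+ replicate 1. The causes were not tested, and depth limits genes with few counts such as Muc3.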

Other observations

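The following 4 genes were called in the contrast and picked here after their values were seen. S100a6, a calcium-binding protein, was at 1.11 to 1.81 CPM in Tim-4-CD4+ macrophages, 5.2 to 9.08 CPM in Tim-4-CD4-, 0.904 to 2.14 CPM in Tim-4+CD4+ macrophages and 344 to 393 CPM in monocytes (edgeR log2 difference -1.23 ± 0.21, adjusted p = 0.0118). Its family member S100a10 was at 2.23 to 3.39, 8.3 to 9.87, 1.81 to 2.84 and 111 to 134 CPM in the same order (log2 difference -0.70 ± 0.14, adjusted p = 0.0243). Anxa2, the annexin that S100a10 binds, was at 7.75 to 11.5, 38.4 to 44.4, 4.96 to 7.49 and 818 to 1050 CPM (log2 difference -0.75 ± 0.12, adjusted p = 0.00855). In each of these the libraries of Tim-4-CD4+ macrophages were below every Tim-4-CD4- library. In the other direction, Fap, a serine protease of activated fibroblasts, was at 9.43 to 9.88, 3.84 to 5.001, 7.59 to 9.52 and 0.475 to 0.669 CPM (log2 difference 0.64 ± 0.11, adjusted p = 0.0102).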
